A study of Mus musculus with 2 samples.

Results

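The genes of sterol and fatty acid synthesis were examined in intestinal subepithelial myofibroblasts (ISEMFs), the contractile mesenchymal cells that lie beneath the intestinal crypts. A list of 29 genes was matched by symbol to the table of 37309 genes, and 28 had a row. Hmgcs1 was not analysed here, and Sc4mol is the older symbol of Msmo1. The members fall into 4 roles: enzymes from acetyl-CoA to squalene, enzymes from squalene to cholesterol, genes that control the pathway or carry sterol, and enzymes of fatty acid synthesis.

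RNA sequencing was performed on 1 library of supportive ISEMFs and 1 library of non-supportive ISEMFs, to look for differences between a population that sustains the growth of intestinal crypts and one that does so weakly. The supportive cells were grown from the small intestine of 5-day-old neonatal C57BL/6 mice. The non-supportive cells were isolated in the same way from 2-month-old adult C57BL/6 mice. No transgene, deletion or drug distinguished the groups, and the culture medium given in the methods held serum, insulin, transferrin and epidermal growth factor.

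The supportive library held 50674472 reads on genes, and the non-supportive one 49615497. No replicate of either population was sequenced, so no difference described here has a replicate check and none was tested. The population, the age of the mice and the isolation cannot be told apart. The name of the deposited table also carries a different number after the letter P for each library, and what it stands for is not stated. Acta2, the smooth muscle actin that defines myofibroblasts, had an RPKM of 908 in supportive and 1410 in non-supportive ISEMFs. Vim was likewise abundant, at 325 against 407, and Des was low, at 0.575 against 3.40. Of the 8 epithelial markers, Epcam, Fabp1, Fabp2 and Krt8 had 0 reads in supportive ISEMFs and at most 5 in non-supportive ISEMFs, and Vil1 had 7 and 8 reads. Krt20 was higher in non-supportive ISEMFs, with an RPKM of 0.0799 against 3.13. Cdh1 and Lgals4 were higher in supportive ISEMFs, with 159 against 18 reads (RPKM 0.427 against 0.0497) and 33 against 25 reads (RPKM 0.151 against 0.117).

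Cells make cholesterol from acetyl-CoA by way of mevalonate, isoprenoid units, squalene and lanosterol. When the endoplasmic reticulum holds little sterol, SCAP escorts the transcription factors SREBP-1 and SREBP-2 (Srebf1, Srebf2) to the Golgi for cleavage, and the freed fragments switch on the genes of sterol and fatty acid synthesis. When sterol is plentiful, the INSIG proteins hold SCAP back. The factors act together with NF-Y, which binds the sequence CCAAT.

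Of the members, 22 besides Hmgcs1 had an entry in the RefSeq promoter table, which covers the 250 bases before and the 50 bases after each start site in GRCm38.p6. CCAAT, read on both strands, was present in at least 1 promoter entry of 18 of these 22 genes (81.8%), against 41.1% of 27025 genes. Some genes have several entries, which gives them more chances of a match. The promoters of Acaca, Acat2, Elovl6 and Scap did not hold it. The core of one form of the sterol regulatory element, TCACNCCAC, was in 0 of the 22, against 1.44% of all genes, which says only that these letters are not in these windows. The E-box CACGTG was in 4 of the 22, those of Dhcr7, Hsd17b7, Insig1 and Scap, and in 8.09% of all genes.

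The 250 bases before the start site are shown for Lss, Nsdhl, Cyp51 and Insig1. These members had more than a 2-fold difference in level between the libraries and cover both arms of the pathway, the enzymes and their control. Acat2 and Sc4mol also differed by more than 2-fold and had a promoter entry, but are not shown. The entry of Sc4mol held CCAAT and that of Acat2 did not, so the stretches shown do not stand for all such members. Each stretch was taken from the RefSeq table and located by exact match in mm9, and it runs 5′ to 3′ on the strand of the gene. Capitals mark CCAAT or, where the box lies on the other strand, ATTGG.
Lss, chr10:75994100-75994349, plus strand: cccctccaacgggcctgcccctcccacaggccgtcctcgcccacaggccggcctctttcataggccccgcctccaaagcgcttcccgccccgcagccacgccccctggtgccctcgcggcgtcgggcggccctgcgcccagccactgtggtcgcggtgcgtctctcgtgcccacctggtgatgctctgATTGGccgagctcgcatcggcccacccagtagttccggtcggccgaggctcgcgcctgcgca
Nsdhl, chrX:70163610-70163859, plus strand: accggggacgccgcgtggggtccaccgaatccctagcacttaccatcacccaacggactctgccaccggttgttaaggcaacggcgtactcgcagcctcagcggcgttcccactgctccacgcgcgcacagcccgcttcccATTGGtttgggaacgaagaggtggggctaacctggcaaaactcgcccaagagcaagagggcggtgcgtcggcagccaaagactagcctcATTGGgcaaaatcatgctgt
Cyp51, chr5:4104698-4104947, minus strand: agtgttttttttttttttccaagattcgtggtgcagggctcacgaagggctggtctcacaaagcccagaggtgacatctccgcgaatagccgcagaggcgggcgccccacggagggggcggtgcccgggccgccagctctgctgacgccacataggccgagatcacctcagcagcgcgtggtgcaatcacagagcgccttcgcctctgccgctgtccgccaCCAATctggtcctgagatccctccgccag
Insig1, chr5:28397702-28397951, plus strand: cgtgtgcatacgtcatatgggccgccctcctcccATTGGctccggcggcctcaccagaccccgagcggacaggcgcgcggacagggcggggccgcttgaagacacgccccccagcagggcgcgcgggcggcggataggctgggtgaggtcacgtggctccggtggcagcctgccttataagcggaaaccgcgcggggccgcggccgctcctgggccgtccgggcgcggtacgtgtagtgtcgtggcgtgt

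The box of Lss ended 58 bases before the RefSeq start site, that of Cyp51 25 bases and that of Insig1 212 bases. The mm9 annotation used for gene coordinates places some starts elsewhere. By it, Lss starts at 75994333 and Cyp51 at 4104746, both inside the stretches shown, and the box of Cyp51 lies within the gene. Nsdhl had 2 boxes in the stretch, ending 105 and 16 bases before the start. A match is a description of the letters, and binding was not measured.

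All 16 sterol enzymes among the members were higher in supportive than in non-supportive ISEMFs, along the route from acetyl-CoA to cholesterol. Among the members that were expressed, the largest ratios belonged to Sqle and Lss, the enzymes that make and cyclise squalene epoxide, to Insig1, which restrains the pathway, and to the fatty acid desaturases Scd1 and Scd2. The other enzymes of fatty acid synthesis, Acly, Fasn, Acaca and Elovl6, differed by at most 1.26-fold. Levels are given as RPKM, reads scaled to exon length and library size. A gene is called expressed here if its RPKM reached 1 in at least 1 of the libraries. Over all expressed genes, 44.7% were higher in supportive ISEMFs.

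Of the 28 members, 23 were expressed, and Mvk, Idi1, Tm7sf2, Srebf1 and Acaca were below the minimum in both libraries. At least 2-fold higher RPKM in supportive ISEMFs was found for 12 of the 23 expressed members (52.2%), against 9.01% of the 10086 expressed genes of the table. The members were chosen with earlier results of these data known. Fdps and Dhcr7 reached the minimum only in the supportive library, where they were higher. With no minimum, 12 of the 28 members were at least 2-fold higher, against 4.76% of all genes. A level at least 2-fold lower was found for 0 of 23, against 9.27%. The remaining 11 lay within 2-fold. Counted by direction alone, 20 of the 23 were above 0 on the log2 scale, against 44.7% of all expressed genes.

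The median log2 ratio of the 23 was 1.002, where that of all expressed genes was -0.07. Log2 ratios are of RPKM + 0.1, supportive over non-supportive, a scale that understates the difference of genes with low levels. The members together took 0.319% of all counted reads in supportive ISEMFs and 0.145% in non-supportive ISEMFs.

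Ratios below are of the RPKM itself, each with a 95% exact interval that covers counting error only. The interval lay wholly above 1 for 22 of the 28 members, wholly below 1 for 3 and held 1 for 3. Of the 12 members that were at least 2-fold higher, 9 had an interval wholly above 2, and for Fdft1, Fdps and Sc4mol it reached below 2.

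**Figure D1:**
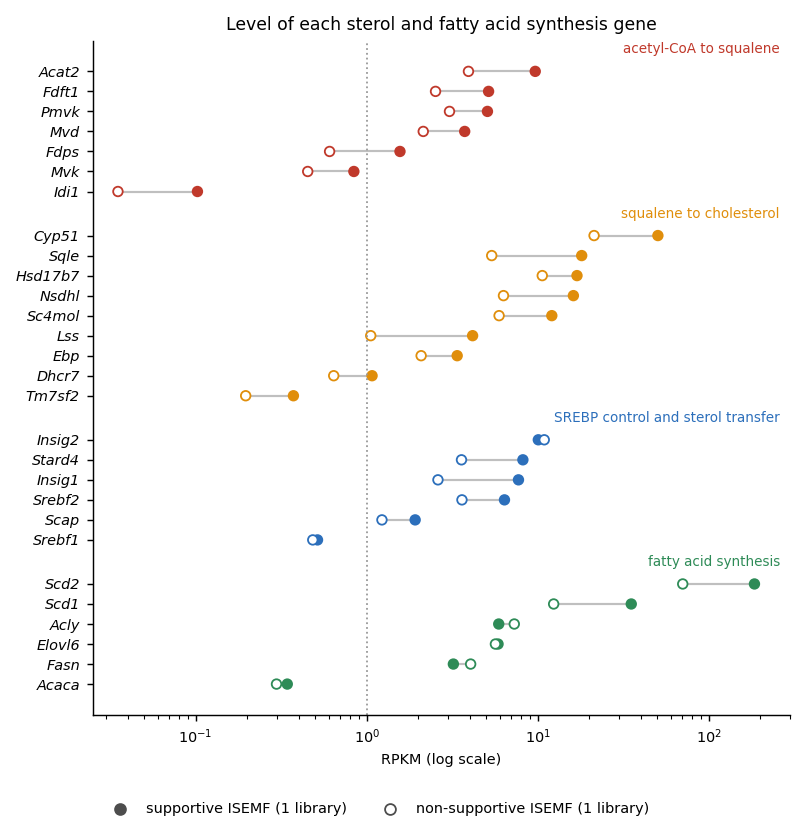
RPKM of each of the 28 members (log axis), with filled points for supportive and open points for non-supportive ISEMFs, grouped by role and ordered by level. The filled point lies to the right for every sterol enzyme, from Idi1 at 0.103 against 0.0352 to Cyp51 at 50.4 against 21.4. The points nearly coincide for Insig2, Srebf1, Acly, Elovl6, Fasn and Acaca, and the dotted line marks an RPKM of 1.

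Among the enzymes from acetyl-CoA to squalene, 3 of the 5 expressed members were at least 2-fold higher in supportive ISEMFs. Over all expressed genes this share was 9.01%. The other 2 members lay between 1.5-fold and 2-fold. The median log2 ratio of the 5 was 1.002. The summed RPKM of the 7 members was 26.2 in supportive and 12.8 in non-supportive ISEMFs. Acat2, the cytosolic thiolase that joins a pair of acetyl-CoA molecules, had the highest level of this role. It had 2422 reads (RPKM 9.67) in supportive and 958 reads (RPKM 3.94) in non-supportive ISEMFs, a ratio of 2.46 (2.28 to 2.65).

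The kinases and the decarboxylase that turn mevalonate into isopentenyl diphosphate differed by less. Pmvk, phosphomevalonate kinase, had an RPKM of 5.08 against 3.05, a ratio of 1.67 (1.49 to 1.87). Mvd, the decarboxylase, had 3.74 against 2.14, a ratio of 1.75 (1.499 to 2.04). Mvk, mevalonate kinase, stayed below the minimum at 0.842 against 0.452, with a ratio of 1.86 (1.53 to 2.28). These 3 genes act one after another, and their intervals overlapped.

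The next enzymes handle the isoprenoid units. Idi1, which interconverts the isopentenyl and dimethylallyl forms, was the lowest member, with 21 reads (RPKM 0.103) in supportive and 7 reads (RPKM 0.0352) in non-supportive ISEMFs. Its ratio of 2.92 had an interval of 1.19 to 8.12, so the size of its difference was poorly determined at this depth. Fdps, which builds farnesyl diphosphate, had 138 reads (RPKM 1.57) against 52 reads (RPKM 0.607), a ratio of 2.58 (1.86 to 3.62). Fdft1, squalene synthase, had 1055 reads (RPKM 5.16) against 502 reads (RPKM 2.53), a ratio of 2.04 (1.83 to 2.28).

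The level of several of these genes is uncertain, because only reads with a unique hit were counted. Of the 50-base windows in their exons, those that occur once on the mm9 chromosomes made 15.6% for Idi1, 34.5% for Fdps, 57.8% for Acat2 and 80.3% for Fdft1. Outside this role the share was 39.5% for Acaca, 66.9% for Insig1 and 92.3% for Elovl6, and at least 95.8% for every other member. Both libraries were counted alike, so the shortfall touches the levels of these genes in both. In addition, 26.9% of the exon bases of Fdft1 overlap Ctsb on the opposite strand, and the library kit does not mark strand.

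From squalene to cholesterol, all 8 expressed members were higher in supportive ISEMFs and 5 of them at least 2-fold. Over all expressed genes these shares were 44.7% and 9.01%. The median log2 ratio of the 8 was 1.12. The summed RPKM of the 9 members was 123 in supportive and 53.6 in non-supportive ISEMFs. The first steps of this stretch had the largest ratios of all members.

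Sqle (ENSMUSG00000022351, mm9 chr15:59146632-59162747) encodes squalene epoxidase, which adds oxygen to squalene. It had 9694 reads (RPKM 18.1) in supportive and 2806 reads (RPKM 5.38) in non-supportive ISEMFs, a ratio of 3.36 (3.22 to 3.50). Lss (ENSMUSG00000033105, mm9 chr10:75994333-76019883) encodes lanosterol synthase, which folds the epoxide into the first sterol ring system. It had 5437 reads (RPKM 4.16) against 1341 reads (RPKM 1.06), a ratio of 3.94 (3.71 to 4.19), the largest of the 28 members.

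The enzymes that follow trim lanosterol. Cyp51 (ENSMUSG00000001467, mm9 chr5:4081145-4104746), which removes the methyl group at carbon 14, was the highest sterol enzyme in both libraries. It had 17267 reads (RPKM 50.4) in supportive and 7107 reads (RPKM 21.4) in non-supportive ISEMFs, a ratio of 2.36 (2.30 to 2.43). Cyp51 made 41.1% of the summed RPKM of its role in supportive and 39.8% in non-supportive ISEMFs. Tm7sf2, a sterol reductase for the same stage, was the lowest member of the role, with an RPKM of 0.373 against 0.196 and a ratio of 1.90 (1.47 to 2.47). Of its exon bases, 15.3% are shared with 1110014N23Rik on the same strand.

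Sc4mol, Nsdhl and Hsd17b7 work in turn to remove the methyl groups at carbon 4. Sc4mol had 6480 reads (RPKM 12.1) in supportive and 3097 reads (RPKM 5.95) in non-supportive ISEMFs, a ratio of 2.03 (1.95 to 2.12). Nsdhl (ENSMUSG00000031349, mm9 chrX:70163896-70203853) had 3480 reads (RPKM 16.2) against 1320 reads (RPKM 6.31), a ratio of 2.56 (2.40 to 2.73). Hsd17b7 had 6700 reads (RPKM 17.0) against 4080 reads (RPKM 10.6), a ratio of 1.60 (1.53 to 1.66). The 3 intervals did not overlap, so within this one reaction series the ratios differed by more than counting error.

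The last steps lay within 2-fold. Ebp, the isomerase that moves the ring double bond, had an RPKM of 3.38 against 2.08, a ratio of 1.62 (1.42 to 1.86). Dhcr7, the reductase that converts 7-dehydrocholesterol to cholesterol, had 1.08 against 0.642, a ratio of 1.68 (1.45 to 1.93). The intervals of both lay wholly above 1.

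**Figure D2:**
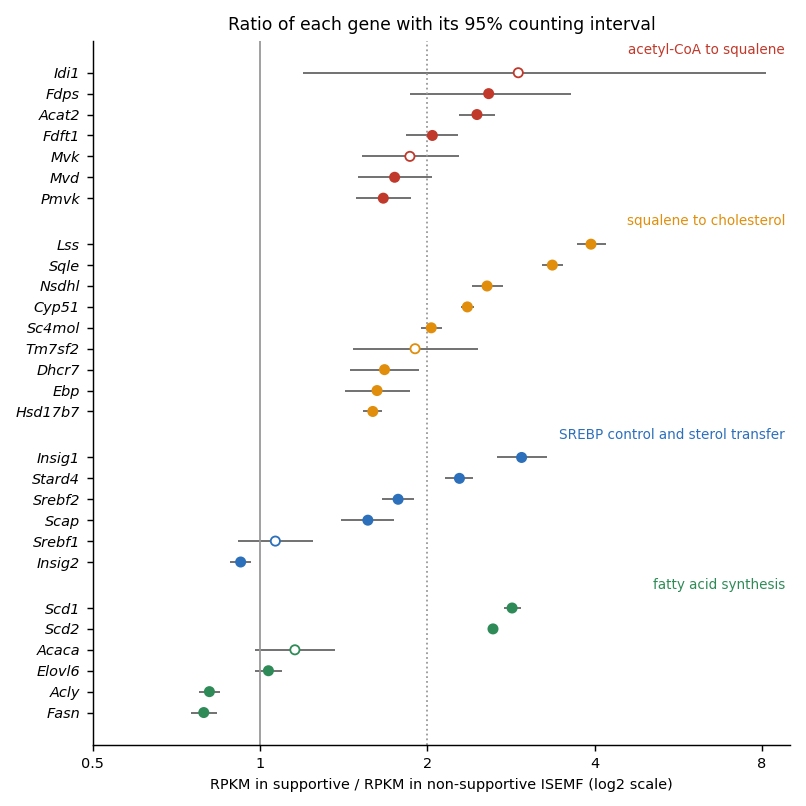
Ratio of RPKM in supportive over non-supportive ISEMFs (log2-spaced axis) for each member, with bars for the 95% counting interval. Open points are members below an RPKM of 1 in both libraries, the solid line marks equal levels and the dotted line 2-fold. Every sterol enzyme lies above 1, up to Lss at 3.94, while Insig2, Acly and Fasn lie below it.

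The control genes were divided. Of the 5 expressed, Insig1 and Stard4 were at least 2-fold higher in supportive ISEMFs, Srebf2 and Scap were higher within 2-fold, and Insig2 was slightly lower. The median log2 ratio was 0.81, and the summed RPKM was 34.8 in supportive and 22.4 in non-supportive ISEMFs.

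Srebf2 encodes SREBP-2, the factor that acts mainly on sterol genes, and had 2524 reads (RPKM 6.39) in supportive and 1384 reads (RPKM 3.61) in non-supportive ISEMFs. Its ratio was 1.77 (1.66 to 1.89). Srebf1 encodes the SREBP-1 forms, of which one acts mainly on fatty acid genes, and was below the minimum with 351 reads (RPKM 0.516) against 320 reads (RPKM 0.484). Its ratio of 1.07 had an interval that held 1, from 0.913 to 1.24. By RPKM, Srebf2 exceeded Srebf1 12.4 times in supportive and 7.45 times in non-supportive ISEMFs. These proportions depend on the deposited exon lengths. That of Srebf1 was 9516 bases, against 5634 in the mm9 annotation used here, and that of Srebf2 was 5525 against 4989. Scap, the escort of both factors, had an RPKM of 1.92 against 1.23 and a ratio of 1.56 (1.40 to 1.75), and 18.9% of its exon bases overlap a gene on the other strand.

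The paralogs that hold SCAP in the endoplasmic reticulum went apart. Insig1 (ENSMUSG00000045294, mm9 chr5:28397952-28405201), itself a target of the SREBPs, had 1460 reads (RPKM 7.72) in supportive and 480 reads (RPKM 2.61) in non-supportive ISEMFs, a ratio of 2.96 (2.66 to 3.28). Insig2 had 3838 reads (RPKM 10.1) against 4040 reads (RPKM 10.9), which was 1.08-fold lower (1.04 to 1.13). With mitochondrial genes left out of the library total, the log2 ratio of Insig2 was 0.0053 in place of -0.11. By RPKM, Insig2 exceeded Insig1 1.31 times in supportive and 4.18 times in non-supportive ISEMFs.

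Stard4, a cytosolic protein that carries cholesterol between membranes, had 3896 reads (RPKM 8.19) in supportive and 1657 reads (RPKM 3.58) in non-supportive ISEMFs. Its ratio of 2.28 (2.16 to 2.42) lay between those of Insig1 and Srebf2, with no overlap of the intervals.

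**Figure D3:**
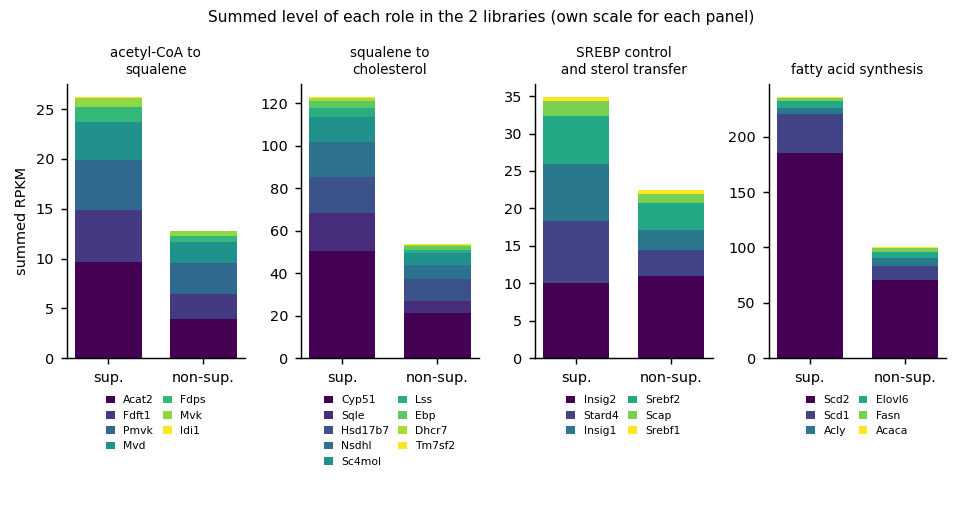
Summed RPKM of the members of each role in the supportive (sup.) and non-supportive (non-sup.) library, stacked by gene, with a separate vertical scale for each panel. The sums were 26.2 against 12.8, 123 against 53.6, 34.8 against 22.4 and 235 against 100.1, and Scd2 fills most of the fatty acid panel in both libraries.

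In fatty acid synthesis, the desaturases stood apart from the other enzymes. The role had a median log2 ratio of 0.05 over its 5 expressed members. Only Scd1 and Scd2 were at least 2-fold higher in supportive ISEMFs, as were 9.01% of all expressed genes. Scd1 and Scd2 both encode stearoyl-CoA desaturase, which places the first double bond in saturated fatty acids. They lie close together on mm9 chromosome 19.

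Scd2 (ENSMUSG00000025203, chr19:44368166-44381354) had 72059 reads (RPKM 185) in supportive and 26670 reads (RPKM 70.4) in non-supportive ISEMFs, the highest level of all members. Its ratio was 2.63 (2.59 to 2.66). Scd1 (ENSMUSG00000037071, chr19:44468941-44482199) had 12173 reads (RPKM 35.2) against 4163 reads (RPKM 12.4), a ratio of 2.84 (2.74 to 2.94). The paralogs kept nearly the same proportion, with Scd2 exceeding Scd1 by RPKM 5.25 times in supportive and 5.68 times in non-supportive ISEMFs. Scd2 alone made 78.5% and 70.3% of the summed RPKM of the role.

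The enzymes that make palmitate did not share this difference. Acly, which releases acetyl-CoA from citrate, had 3524 reads (RPKM 5.92) in supportive and 4222 reads (RPKM 7.29) in non-supportive ISEMFs, 1.23-fold lower (1.18 to 1.29). Fasn, fatty acid synthase, had 2496 reads (RPKM 3.21) against 3061 reads (RPKM 4.05), 1.26-fold lower (1.197 to 1.33). Acaca, the acetyl-CoA carboxylase that supplies malonyl-CoA, was the lowest of the role at an RPKM of 0.344 against 0.297. Its ratio was 1.16 (0.978 to 1.37).

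Elovl6, which lengthens palmitate to stearate, the main substrate of the desaturases, had an RPKM of 5.86 against 5.66, a ratio of 1.04 (0.979 to 1.10). The intervals of Acaca and Elovl6 held 1. By RPKM, Scd2 exceeded Fasn 57.6 times in supportive and 17.4 times in non-supportive ISEMFs.

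**Figure D4:**
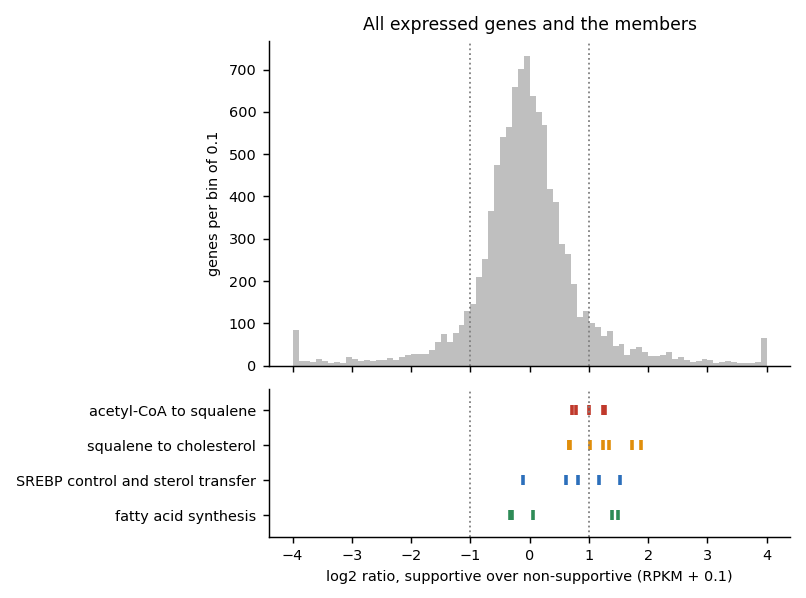
Upper panel: number of expressed genes (10086 in all) per bin of log2 ratio, supportive over non-supportive, on RPKM + 0.1, with values beyond 4 in either direction drawn at 4. Lower panel: the 23 expressed members as ticks by role on the same axis, with dotted lines at 2-fold. The bulk of all genes is centred near -0.07, while the sterol enzymes lie between 0.66 and 1.88 and the fatty acid members fall into a group near 0 and the pair of desaturases.

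Several other measures moved along with these differences. Genes of the mitochondrial genome took 14.6% of counted reads in supportive and 7.85% in non-supportive ISEMFs, and leaving them out of the total left the count of members at least 2-fold higher at 12. All 8 macrophage markers were lower in supportive ISEMFs, with a summed RPKM of 6.86 against 123, of which Lyz2 made 6.31 against 72.7. Tyrobp, Emr1, Itgam and Ptprc had 0 reads in the supportive library. All 10 proliferation genes were higher in supportive ISEMFs, with a summed RPKM of 117 against 95.7 and a median log2 ratio of 0.25 over the 9 expressed. Of all expressed genes, 44.7% were above 0. The differences were small: 0 of the 9 reached 2-fold, and the counting intervals of Pcna, Bub1 and Mcm5 held 1. The part of these measures in the members' values was not tested, and in bulk RNA fewer cells of a type and less RNA per cell cannot be told apart.

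Scd1 and Fasn are also abundant in fat cells. Of the 8 adipocyte markers, Plin1, Cidec and Retn had 0 reads in both libraries, and Adipoq and Lep had 1 read in supportive and 0 in non-supportive ISEMFs. Fabp4 had 89 against 96 reads. Pparg and Cebpa, which other cells also express, were lower in supportive ISEMFs, with 41 against 321 reads and 13 against 76 reads. The summed RPKM of the 8 markers was 2.33 against 4.92, and their part in the members' values was not tested.

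Of 7 further genes of sterol and isoprenoid synthesis, 6 were expressed. Their median log2 ratio was 0.23, where that of the expressed sterol enzymes among the members was 1.01. In supportive ISEMFs 5 were higher and 1 lower, and of all expressed genes 44.7% were above 0. Past 2-fold, 0 were higher and 0 lower, against 9.01% and 9.27% of all expressed genes. With 6 genes, a count of 0 lies near those shares. Sc5d, the desaturase that acts just before Dhcr7, had an RPKM of 11.4 against 8.69, a ratio of 1.31 (1.23 to 1.38). Acat1, the mitochondrial thiolase, had 10.1 against 7.84, a ratio of 1.29 (1.22 to 1.36).

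The machinery that cleaves SREBP or degrades sterol-regulated proteins had more genes lower than higher in supportive ISEMFs. All 8 of its genes were expressed, with a median log2 ratio of -0.46, where that of all expressed genes was -0.07. In supportive ISEMFs 6 were lower and 2 higher, and of all expressed genes 44.7% were above 0. Past 2-fold, 0 were higher and 1 was lower, against 9.01% and 9.27% of all expressed genes. Erlin1, a membrane protein of the endoplasmic reticulum that takes part in such breakdown, had an RPKM of 4.21 against 6.32, 1.502-fold lower (1.42 to 1.59). Mbtps2, the site-2 protease that frees the SREBP fragment, had 3.91 against 5.63, 1.44-fold lower (1.38 to 1.505). The 2 higher genes were Mbtps1 and Rnf139. Mbtps1 had 5.60 against 5.36, a ratio of 1.04 (0.989 to 1.10). Rnf139 had 17.4 against 13.7, a ratio of 1.27 (1.22 to 1.32).

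Of 10 genes of sterol uptake and transport, 7 were expressed, with a median log2 ratio of 0.33. Of the 7, 2 were at least 2-fold higher and 0 at least 2-fold lower, against 9.01% and 9.27% of all expressed genes. Lrp1, a large endocytic receptor for lipoproteins and other ligands, had an RPKM of 38.3 against 15.8, a ratio of 2.41 (2.38 to 2.45). Vldlr, a receptor for very low density lipoprotein, had 5.84 against 2.42, a ratio of 2.42 (2.31 to 2.53). Lipa, the lysosomal lipase that frees cholesterol from its esters, had 19.96 against 30.4, 1.53-fold lower (1.47 to 1.59).

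Of 13 genes of sterol efflux, storage and the LXR receptors, 9 were expressed, with a median log2 ratio of -0.93. In supportive ISEMFs 6 of the 9 were lower and 3 higher, where 44.7% of all expressed genes were above 0. The receptor genes Nr1h2 and Nr1h3 were below the minimum in both libraries. Their ratios were 1.17 (0.986 to 1.38) and 1.26 (0.512 to 3.22), and both intervals held 1. Of the 9, 4 were at least 2-fold lower and 1 at least 2-fold higher, against 9.27% and 9.01% of all expressed genes. Apoe, Abcg1 and Ch25h reached the minimum RPKM only in the non-supportive library, where they were higher, so their count as lower depends in part on that minimum. Apoe, an apolipoprotein of cholesterol export, had 45 reads (RPKM 0.128) in supportive and 934 reads (RPKM 2.74) in non-supportive ISEMFs, 21.4-fold lower (15.8 to 29.5). Abcg1, a sterol exporter, had 29 reads (RPKM 0.0986) against 415 reads (RPKM 1.45), 14.7-fold lower (10.1 to 22.3). Ch25h, which makes 25-hydroxycholesterol, had 19 reads (RPKM 0.197) against 190 reads (RPKM 2.03), 10.3-fold lower (6.41 to 17.5). Macrophages express these genes too, and the macrophage markers were lower in the same library; their part in these values was not tested.

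Soat1, which esterifies cholesterol for storage, is named after its values were seen because it had the most reads of this list. It had 3494 reads (RPKM 10.2) in supportive and 17764 reads (RPKM 53.5) in non-supportive ISEMFs, 5.23-fold lower (5.04 to 5.43).

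Of 20 further genes of fatty acid synthesis, elongation and desaturation, 13 were expressed, with a median log2 ratio of -0.03. Of the 13, 2 were at least 2-fold higher and 2 at least 2-fold lower, against 9.01% and 9.27% of all expressed genes. The higher pair were again desaturases, of the polyunsaturated series. Fads2 had an RPKM of 17.7 against 4.42, a ratio of 3.99 (3.61 to 4.43). Fads1 had 87.2 against 38.0, a ratio of 2.30 (2.24 to 2.35). Elovl4, an elongase of very long chains, had 0.422 against 2.72, 6.45-fold lower (5.17 to 8.13), and reached the minimum only in the non-supportive library. The other gene that was lower was Mcat, of mitochondrial fatty acid synthesis, with a log2 ratio of -1.05.

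**Figure D5:**
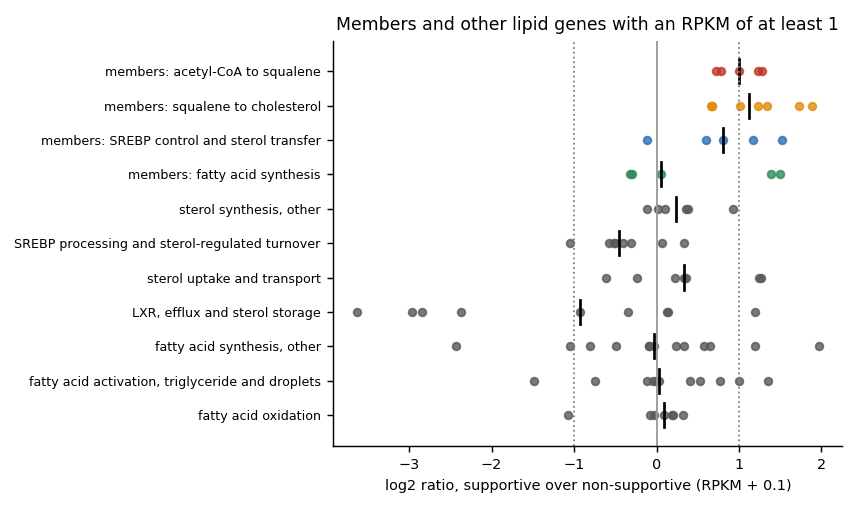
Log2 ratio, supportive over non-supportive on RPKM + 0.1, of each expressed member (coloured, by role) and each expressed gene of the 7 other lipid lists (grey), with a bar at the median of each row and dotted lines at 2-fold. The medians of the sterol members (1.002, 1.12 and 0.81) lie to the right of those of the other lists, which run from -0.93 for efflux and storage to 0.33 for uptake and transport.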

How the data were processed

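RNA of cultured ISEMFs was made into libraries with a kit that does not mark strand and sequenced as single-end 50-base reads. The authors aligned the reads to mm9 with TopHat (TopHat2 2.0.4 in the submitters' processing notes) using Ensembl genes, allowing 2 mismatches and unique hits, and counted reads per gene with HTSeq (0.5.4p3); the Ensembl release and the strand setting are not given in the sources used here. The deposited counts are raw reads per gene. The deposited RPKM values were made by the authors from the counts, the length of all exons of a gene and the library size. The authors' log2 ratio and DESeq p-value columns, and a shorter table of Wnt pathway genes, were not used.

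Log2 ratios were computed from RPKM + 0.1 over genes whose RPKM reached 1 in at least 1 library, and a 2-fold difference was counted. With 1 library per group there was no test. Ratios carry 95% exact Clopper-Pearson intervals of the share of reads, which cover counting error only; 3 reads, the limit that a count of 0 allows, are 5.92e-06% of the supportive library. Alternatives were pseudocounts of 1 and 0.001, thresholds of 1.5-fold and 4-fold, a minimum RPKM of 5 or none, and 4 other scalings.

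The members and gene lists were chosen with earlier results of these data known. Every member was named, with full values for those 2-fold different, the highest and lowest of each role and the paralog pairs, and from each other list the 3 expressed genes with the largest absolute log2 ratio. Some genes that the rule would name are not reported here. Coordinates and exon windows come from the GENCODE annotation of mm9 given with the genome, whose exon lengths differ from the deposited ones for some members. TMM factors came from edgeR 4.0.16 and size factors from DESeq2 1.42.0 in R 4.3.3. The rest was computed in Python 3.11.15 with scipy 1.17.1, pandas 2.3.3 and numpy 2.4.6, and plotted with matplotlib 3.10.9.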

Additional observations from a re-analysis of the deposited data

How the results depend on the processing

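No paired analysis was possible because each population had 1 library. The count of members at least 2-fold higher stayed at 12 under TMM factors (0.984 and 1.02), DESeq2 size factors, a median of all expressed genes set to 0 and totals without mitochondrial genes, and was 9 with a pseudocount of 1 and 10 with a minimum RPKM of 5. It was 19 at 1.5-fold, where 16.4% of all expressed genes were called, and 0 at 4-fold, against 3.24%. The count at least 2-fold lower was 0 under each alternative. The median log2 ratio of members (1.002) was 0.68 with a pseudocount of 1 and 0.77 with no minimum. For acetyl-CoA to squalene these were 0.68 and 0.78. For squalene to cholesterol (1.12) they were 1.06 and 1.01, and the median was 1.197 with all genes centred, 1.25 without mitochondrial genes and 1.24 with a minimum of 5. For the control genes (0.81) it was 0.68 with a pseudocount of 1, 0.71 with no minimum, 0.93 without mitochondrial genes and 0.99 with a minimum of 5. For fatty acid synthesis (0.05) it was 0.17 without mitochondrial genes and 0.72 with a minimum of 5, which leaves fewer genes. Of 168 values of single members, 167 kept their sign, and Insig2 did not (0.0053 without mitochondrial genes). Depth limits the size of the difference for Idi1 above all.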

Other observations

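Of 14 genes of fatty acid activation, triglyceride synthesis and lipid droplets, 11 were expressed, 1 was at least 2-fold higher in supportive ISEMFs and 1 at least 2-fold lower (9.09% each, near the 9.01% and 9.27% of all expressed genes), with a median log2 ratio of 0.03. Plin2, the coat protein of lipid droplets in most cells, had an RPKM of 3.51 in supportive and 10.0 in non-supportive ISEMFs, 2.86-fold lower (2.68 to 3.06). Acsl1, an acyl-CoA synthetase, had 2.77 against 1.03, a ratio of 2.70 (2.49 to 2.92). Lpin1, a phosphatidate phosphatase, had 1.69 against 0.797, a ratio of 2.12 (1.85 to 2.43), but fell just short of 2-fold on the log2 scale with the pseudocount.

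Of 11 genes of fatty acid oxidation, 7 were expressed, with a median log2 ratio of 0.09. Of the 7, 0 were at least 2-fold higher and 1 at least 2-fold lower, against 9.01% and 9.27% of all expressed genes. The gene that was lower was Acadl, the long-chain acyl-CoA dehydrogenase, with an RPKM of 8.16 against 17.2, 2.11-fold lower (1.97 to 2.26). Cpt1a, which admits fatty acids to mitochondria, had 16.3 against 13.1, a ratio of 1.25 (1.195 to 1.2999), and Acadm had 2.62 against 2.27, a ratio of 1.16 (1.04 to 1.28). These lists were chosen with earlier results of these data known.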
